A study of Mus musculus with 14 samples.

Results

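The genes described here are the mitochondrial ribosomal protein genes, taken as every gene of the deposited table whose symbol begins with Mrpl or Mrps followed by a digit. The rule gave 77 of 10106 genes, of which 47 are named Mrpl and 30 Mrps. All 77 passed the filter on low values (a mean of at least 1 RPKM, a read density that takes account of gene length and library depth), as did 9793 genes of the whole table. By the position of the protein in the ribosome, 49 members belong to the large subunit and 26 to the small subunit, since Mrps18a and Mrps30 carry a small-subunit name but sit in the large one. Of the other two, Mrps36 encodes a protein now placed in the alpha-ketoglutarate dehydrogenase complex, and Mrps36-ps1 is a processed pseudogene on chromosome 17 whose reads may not be told apart from those of Mrps36.

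The mitochondrial ribosome translates the messenger RNAs encoded by the mitochondrial genome, which all specify subunits of the oxidative phosphorylation complexes. Its ribosomal RNAs are made inside the organelle, whereas its proteins are encoded in the nucleus, made in the cytosol and imported. Many of these proteins have a bacterial counterpart and others are particular to mitochondria. T cells that leave quiescence are known to enlarge their mitochondria and to raise mitochondrial translation.

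Polyadenylated RNA was sequenced from OT-I CD8+ T cells, whose transgenic receptor recognises SIINFEKL, a peptide of ovalbumin, on MHC class I. Cells labelled with the division dye CFSE were moved on day 0 into CD45.2+ C57BL/6 recipients, antigen or saline was injected into a vein on day 1, and the cells were sorted from spleen on day 4 as CD3e+, CD8+ and CD45.1+. The labelled age was 8 to 12 weeks. The 5 groups shared the transgenic cells and the transfer and differed in the injection: saline (Naive, 3 libraries), or 223 pmol of soluble ovalbumin (OVA, 3), ovalbumin bearing the erythrocyte-binding peptide ERY1 (ERY1-OVA, 3), soluble peptide (SIINFEKL, 2), or the peptide carried by TER119, an antibody to erythrocytes (TER119-SIINFEKL, 3). The cells came from a line with 1 transgenic receptor, so the groups model the response of that specificity. Whether some cells also bore another receptor was not tested. The study's text gives a number of mice per group without saying whether a library is 1 mouse or a pool, so p-values measure the spread between these libraries, which may be technical. In RNA from a sorted population, fewer cells of a type and less RNA per cell cannot be told apart.

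Transcripts of CD8+ T cells were abundant throughout. The 4 of 5 fixed CD8 T cell markers with values summed to between 1464.98 RPKM (TER119-SIINFEKL) and 2503.55 RPKM (Naive). Of the 6 B cell markers 3 had values, with sums of 18.85 to 28.41 RPKM in Naive, 16.25 to 63.12 after OVA, 20.89 to 21.79 after ERY1-OVA, 21.78 to 42.04 after TER119-SIINFEKL and 18.71 to 26.35 after SIINFEKL, and libraries with high sums are named beside the results. Cd4 stayed between 0.18 and 1.31 RPKM, 2 of 4 macrophage markers summed to 3.5 to 15.61 RPKM, 1 of 3 dendritic cell markers to 0.77 to 3.2, 1 of 2 NK cell markers to 2.51 to 14.7 and 2 of 5 erythroid markers to 1.53 to 20.32, while neither platelet marker had a value in the table. Reads per gene were not used, so the depth behind a value is unknown. Deposited values, read as log2 RPKM, are given as levels. Fold changes are log2 differences with their standard error (SE), and a gene is said to have risen or fallen where limma gave a Benjamini-Hochberg adjusted p under 0.05 over all 9793 genes.

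Some members that rose most carry short promoter motifs that are known to be read by factors of mitochondrial biogenesis, and others do not. The promoters of 4 that carry one are shown. Each line gives the 100 bases before the RefSeq transcription start (build GRCm38.p6), 5′ to 3′ on the gene's strand, with motif matches on either strand in capitals. Mrpl27 (chr11:94653691-94653790, + strand) and Mrps22 (chr9:98601680-98601779, − strand), among the largest rises after OVA, hold CCGGAAG, an ETS site of the kind GABP reads. Mrpl12 (chr11:120484537-120484636, + strand), the stalk protein, and Mrpl17 (chr7:105811088-105811187, − strand), at the exit of the nascent chain, hold 1 and 2 matches to GCGCANGCG, the core of the site read by NRF1.
Mrpl27: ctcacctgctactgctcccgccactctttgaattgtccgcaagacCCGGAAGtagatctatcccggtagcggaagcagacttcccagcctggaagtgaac
Mrps22: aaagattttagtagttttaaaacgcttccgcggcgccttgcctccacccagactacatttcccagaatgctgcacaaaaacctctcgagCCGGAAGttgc
Mrpl12: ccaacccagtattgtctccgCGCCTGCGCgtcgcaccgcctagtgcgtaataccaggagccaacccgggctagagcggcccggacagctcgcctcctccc
Mrpl17: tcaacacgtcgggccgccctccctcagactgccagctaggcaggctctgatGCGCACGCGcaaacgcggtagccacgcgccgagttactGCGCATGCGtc

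RefSeq promoters (250 bases before to 50 after a start) were matched by symbol for 67 of the 77 members. CCGGAAG stood in the promoters of 24 of them (35.8%), against 23.2% of the 7554 genes of the table with a promoter and 9.9% of all 27025 genes with one. GCGCANGCG stood in 15 (22.4%, against 17.3% and 7.0%), and AAGATGGCG, read by YY1, in 8 (11.9%, against 4.3% and 1.6%). CACGTG, the E-box read by MYC and its relatives, stood in 5 (7.5%, against 12.4% and 8.1%). Both strands were searched and a gene with several starts counted once. Matches to different motifs were counted separately. Mrps6 and Mrpl16, among the largest rises after TER119-SIINFEKL, held none of these motifs. Mrpl30 held 2 matches to GCGCANGCG and Mrpl52 held 2 to CCGGAAG, and neither gene was called in any comparison. Whether a motif went with a rise was not tested. A match describes these letters only, and binding was not measured.

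Soluble ovalbumin raised the members as a group. After OVA 50 of the 77 were higher than in Naive (24.4% of all tested genes were called higher) and 0 were lower (23.1% lower), with 0 lower also at an unadjusted p under 0.05. The median log2 fold change was 0.56, a fold of 1.47, against -0.04 over all tested genes, and single members ranged from -0.17 to 1.61. In the large subunit 32 of 49 rose and in the small subunit 16 of 26. Members with a bacterial counterpart rose in 32 of 47 cases and those particular to mitochondria in 16 of 28. The 28 include Mrps36, and Mrpl55 and Mrps36-ps1 were not classed by origin. Leaving out any 1 library left 40 to 57 members called higher.

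**Figure D1:**
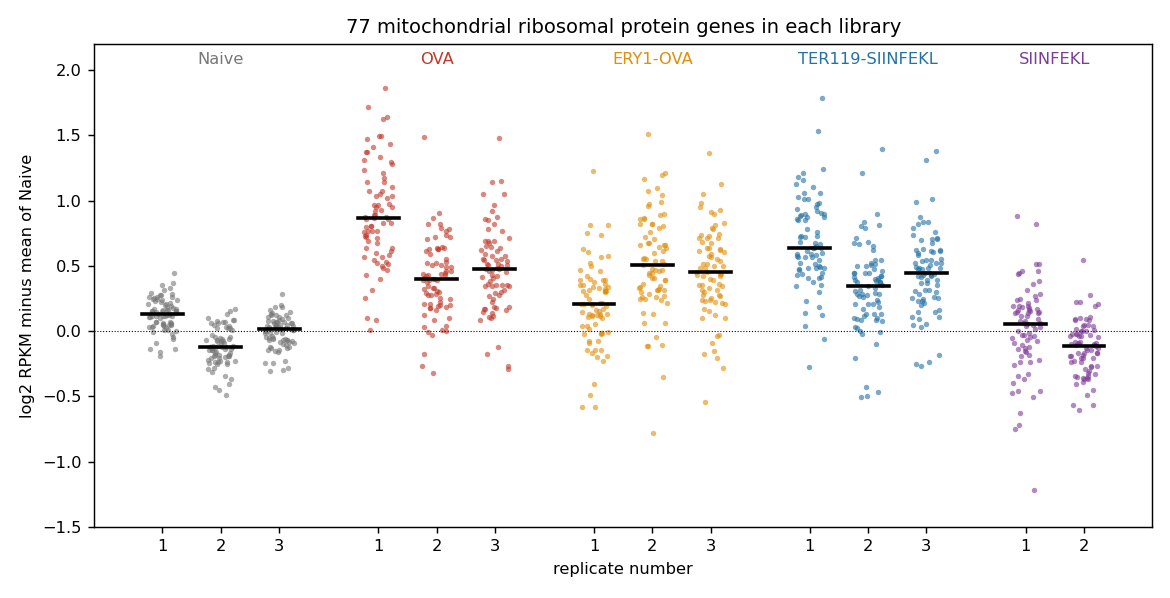
Each point is 1 of the 77 genes in 1 library, drawn as log2 RPKM minus the gene's mean over the 3 Naive libraries, and the bar is the median of the library. Medians lie between 0.21 and 0.87 in all libraries given OVA, ERY1-OVA or TER119-SIINFEKL, and between -0.13 and 0.13 in the Naive and SIINFEKL libraries.

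The rise was seen across whole libraries, as the plot of all members by library shows. The median member lay 0.87, 0.40 and 0.48 above its Naive mean in the 3 OVA libraries, 0.21, 0.51 and 0.45 above it in the ERY1-OVA libraries, and 0.64, 0.35 and 0.45 above it in the TER119-SIINFEKL libraries. It lay at 0.06 and -0.11 in the 2 SIINFEKL libraries, inside the -0.13 to 0.13 of the Naive libraries. OVA replicate 1 and TER119-SIINFEKL replicate 1 were thus the highest of their groups and ERY1-OVA replicate 1 the lowest of its own. Markers of most other cell types were also highest in the first 2 of these, while Cd4 was not. Summed B cell markers were 63.12 RPKM in OVA replicate 1 against 23.37 and 16.25 in the other OVA libraries, and macrophage markers 15.61 against 10.1 and 5.9. Of the macrophage markers, Lyz2 was highest there (level 3.525 against 1.959 and 0.992), and Cd68 was not (2.033 against 2.636 and 1.968). In the same library the dendritic cell marker was 3.2 RPKM against 2.42 and 2.55, and the NK cell marker 4.92 against 3.45 and 2.51. Erythroid markers were 8.54 RPKM against 2.73 and 4.24, and Cd4 was 0.33 RPKM against 0.37 and 0.42. In TER119-SIINFEKL replicate 1 B cell markers were 42.04 RPKM against 22.5 and 21.78 in the rest of the group, the NK cell marker 14.7 against 4.72 and 6.75, and erythroid markers 20.32 against 2.59 and 1.55. Its dendritic cell marker was 2.0 RPKM against 1.77 and 1.69. Its macrophage markers were 7.42 RPKM against 6.87 and 7.66, and Cd4 was 0.58 RPKM against 1.31 and 0.6. Without both libraries 42 members were higher than in Naive after OVA (median 0.44) and 41 after TER119-SIINFEKL (median 0.40). Over all tested genes 22.6% and 24.5% were higher in that fit. In OVA replicate 1, 75 members exceeded all 3 Naive values (39.5% of tested genes did so), and in ERY1-OVA replicate 1, 41 did (37.5%). In SIINFEKL replicates 1 and 2 the numbers were 24 (38.8%) and 7 (29.3%).

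Mrpl27, the counterpart of the bacterial protein that reaches toward the peptidyl transferase centre, rose most after OVA. The gene lies at chr11:94653767-94660089 (+ strand, GRCm38). Its level was 4.08, 3.69 and 4.16 in the Naive libraries and 5.84, 5.46 and 5.46 after OVA. It was 5.20, 5.48 and 5.34 after ERY1-OVA, 5.51, 5.38 and 5.29 after TER119-SIINFEKL, and 4.79 and 4.19 after SIINFEKL. Every library of the 3 responding groups exceeded every Naive and SIINFEKL library. The log2 fold change from Naive was 1.61 ± 0.17 (SE, 3 against 3, adjusted p = 7.1e-06) after OVA, 1.37 ± 0.17 after ERY1-OVA and 1.41 ± 0.17 after TER119-SIINFEKL. Both SIINFEKL libraries also lay above the highest Naive library, replicate 2 only just, and their change of 0.51 ± 0.19 did not pass the threshold (adjusted p = 0.08). Without SIINFEKL replicate 2 it was 0.82 and passed (adjusted p = 0.01).

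Mrps22, a small-subunit protein particular to mitochondria, came next after OVA. It lies at chr9:98588730-98601660 (− strand). Naive libraries held 3.43, 3.19 and 3.21, and OVA libraries 5.00, 4.00 and 4.43, with no overlap (1.20 ± 0.23, adjusted p = 0.0011). ERY1-OVA libraries held 3.58, 4.24 and 4.07 (0.68 ± 0.23), TER119-SIINFEKL libraries 4.43, 3.96 and 3.80 (0.78 ± 0.23), and SIINFEKL libraries 3.04 and 2.94, below every other library. The call after ERY1-OVA was lost without ERY1-OVA replicate 2 (0.54) or 3 (0.63) or Naive replicate 2 (0.64) or 3 (0.65), and that after TER119-SIINFEKL without TER119-SIINFEKL replicate 1 (0.60).

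Mrpl13, of the large subunit's solvent side, and Mrpl18, of the central protuberance (the crown of the large subunit that faces the small one), rose in all 3 groups. Mrpl13 (chr15:55534094-55557748, − strand) stood at 4.83, 4.45 and 4.44 in Naive and 6.22, 5.40 and 5.63 after OVA, a change of 1.17 ± 0.21 (adjusted p = 0.00065). It stood at 5.15, 5.67 and 5.70 after ERY1-OVA, 5.25 to 5.79 after TER119-SIINFEKL, and 4.77 and 4.61 after SIINFEKL, the last 2 within the Naive range. Mrpl18 (chr17:12911349-12916345, − strand) changed by 1.17 ± 0.15 after OVA, 0.97 ± 0.15 after ERY1-OVA and 0.89 ± 0.15 after TER119-SIINFEKL, with no library of these groups as low as a Naive one. Mrps11, of the platform of the small subunit, changed by 1.09 ± 0.14, 0.93 ± 0.14 and 0.93 ± 0.14 in the same order.

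Several of these genes share exon sequence with a neighbour on the opposite strand. The kit marks strand, but whether strand was used in counting is not given in the sources used here, so reads of the pair may not be told apart. Mrpl27 shares 75 exon bases with Eme1, a DNA repair nuclease subunit (4.05 after OVA), Mrpl13 shares 330 with Mtbp (1.91), Mrpl18 shares 141 with the chaperonin gene Tcp1 (0.76), and Mrps11 shares 173 with Mrpl46. In all, 27 members had an opposite-strand overlap and 21 overlapped a gene of the table on either strand. Without those 21, Mrps36, Mrps36-ps1 and Mrpl33 (whose identifier had no annotation match), a choice made after seeing the data, 37 of 53 members were higher after OVA, 26 after ERY1-OVA and 31 after TER119-SIINFEKL.

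Erythrocyte-targeted ovalbumin also raised members, with a smaller median. After ERY1-OVA 34 of 77 were higher than in Naive (20.9% of all tested genes) and 1, Mrpl38, was lower (19.0%), with a median of 0.39 against -0.01 over all genes. The large subunit gave 23 of the rises and the small subunit 10. The count of rises fell to 18 without ERY1-OVA replicate 2, 19 without ERY1-OVA replicate 3 and 19 without Naive replicate 2. The share of all tested genes called higher in these fits fell too, to 16.8%, 16.9% and 17.0%. The median of the members stayed between 0.34 and 0.48 whichever library was left out. The largest rises were those of Mrpl27, Mrps6 (1.02 ± 0.17), Mrpl18, Mrpl13 (0.93 ± 0.21) and Mrps11.

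Erythrocyte-targeted peptide gave a rise of similar size. After TER119-SIINFEKL 44 of 77 were higher than in Naive (24.6% of all tested genes) and 0 were lower (23.0%), with 1 lower at an unadjusted p under 0.05, and the median was 0.48 against 0.00. The large subunit gave 30 of the rises and the small subunit 12. Leaving out any 1 library left 31 to 53 members called higher. The 5 largest rises were those of Mrps6, Mrpl27, Mrpl16 (1.01 ± 0.16), Mrpl13 (0.96 ± 0.21) and Mrpl17 (0.93 ± 0.20).

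Mrps6, which forms part of the small subunit's platform, had its highest values after TER119-SIINFEKL. The gene lies at chr16:92058270-92112227 (+ strand) and shares 159 exon bases with Slc5a3 on the same strand. Its level was 4.30, 4.07 and 4.18 in Naive, 5.52, 4.92 and 5.04 after OVA, and 5.00, 5.40 and 5.23 after ERY1-OVA. It reached 5.97, 5.40 and 5.56 after TER119-SIINFEKL and 4.42 and 4.22 after SIINFEKL. The change from Naive was 1.46 ± 0.17 after TER119-SIINFEKL (adjusted p = 1.9e-05) and 0.98 ± 0.17 after OVA, and the SIINFEKL values overlapped the Naive ones.

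The 3 comparisons share the Naive libraries, so their agreement is not independent. Of the 77 members, 33 were called higher in all 3, 52 in at least 1 and 25 in none. A further 9 were called after OVA and TER119-SIINFEKL but not ERY1-OVA, 8 after OVA alone, 1 after TER119-SIINFEKL alone and 1 in both targeted groups but not OVA. The highest group mean was in OVA for 54 members, TER119-SIINFEKL for 16, ERY1-OVA for 4, Naive for 3 and SIINFEKL for 0. These overlaps and orders were not counted over all tested genes, so how far they are particular to the members is not known. In the single comparisons 24.4% (OVA), 20.9% (ERY1-OVA) and 24.6% (TER119-SIINFEKL) of all tested genes were called higher.

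**Figure D2:**
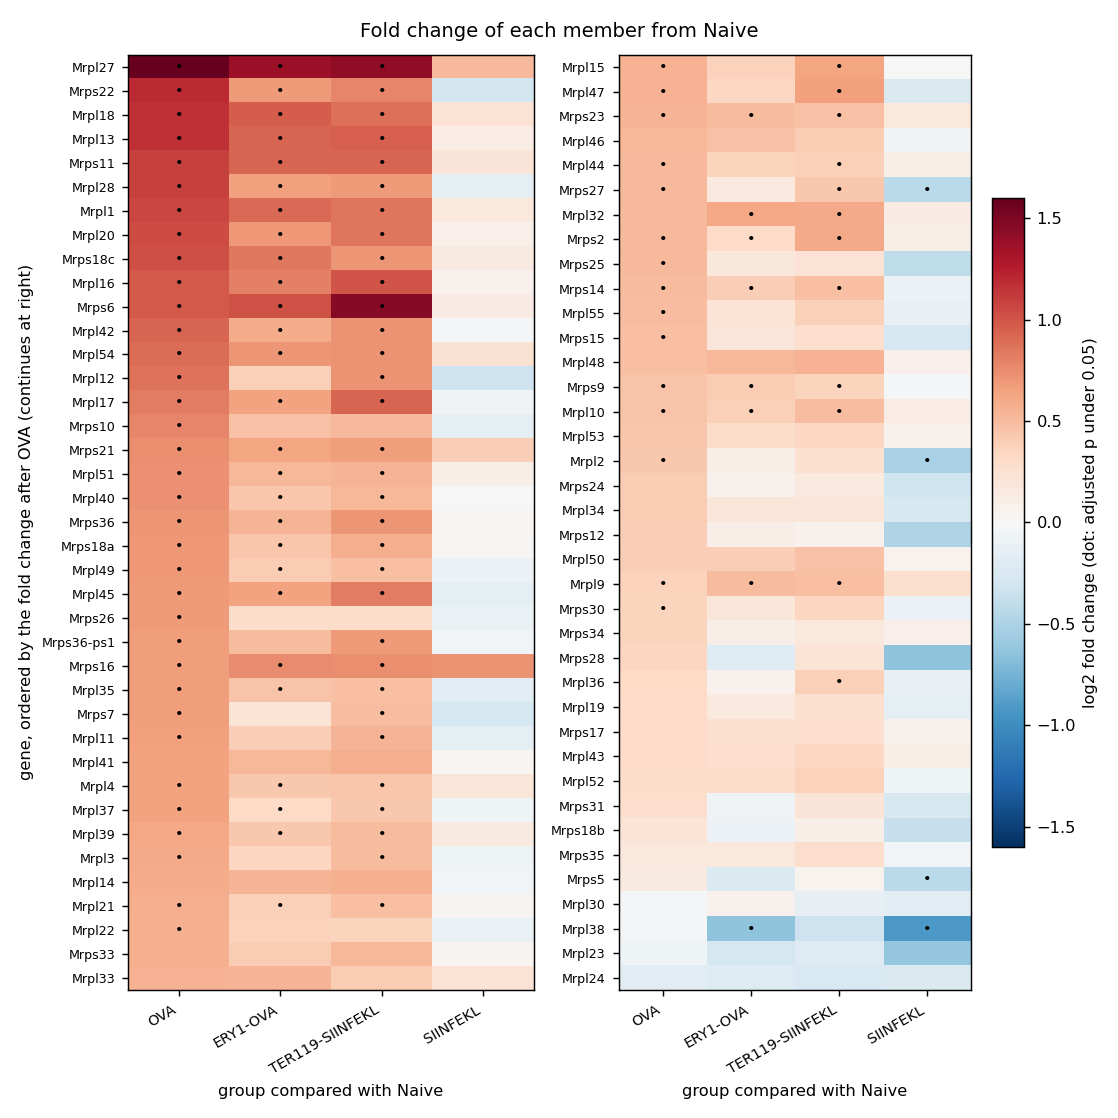
Log2 fold change of each of the 77 genes from Naive (colour, red higher and blue lower) in the 4 antigen groups, with genes ordered by the change after OVA and a dot where the adjusted p was under 0.05. Dots fill most of the OVA column (50 genes) and fewer of the TER119-SIINFEKL (44) and ERY1-OVA (34 higher and 1 lower) columns. In the SIINFEKL column they fill 4 cells, all of them blue.

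Soluble peptide did not raise the members. After SIINFEKL 0 of 77 were higher than in Naive (7.58% of all tested genes) and 4 were lower (8.34%), with a median of -0.05 against -0.01 over all genes. At an unadjusted p under 0.05, 3 were higher and 10 lower (14.5% and 16.9% of all tested genes). The 4 that fell were Mrpl38, Mrpl2, Mrps5 and Mrps27, and the count of falls was 1 without SIINFEKL replicate 1, 1 without Naive replicate 3, 2 without Naive replicate 2 and 7 without OVA replicate 1. Over all tested genes 4.76% were lower without Naive replicate 3, 5.11% without Naive replicate 2 and 8.48% without OVA replicate 1. The lowest group mean was in SIINFEKL for 42 members and in Naive for 34. The SIINFEKL pair differed in Mki67, a gene of dividing cells, at 21.16 RPKM in replicate 1 and 2.89 RPKM in replicate 2, against 1.48 to 2.35 RPKM in Naive and 29.22 to 91.2 RPKM in the other groups. Replicate 1 was the higher of the pair for 59 of 77 members, by a median of 0.15, against 0.009 over all tested genes. The order was the reverse in the other antigen groups. OVA replicate 1 (43.5 RPKM) and TER119-SIINFEKL replicate 1 (29.22 RPKM) had the lowest Mki67 of their groups and the highest members. ERY1-OVA replicate 1 had the highest Mki67 (91.2 RPKM) and the lowest members of its group. The part of the Mki67 difference within the SIINFEKL pair in the results was not tested.

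Mrpl38, a protein of the central protuberance particular to mitochondria, departed from the other members. The gene lies at chr11:116131817-116138868 (− strand). Its level was 4.15, 4.27 and 4.31 in Naive, 4.25, 4.25 and 4.12 after OVA, and 3.97, 3.77 and 4.00 after TER119-SIINFEKL. It was 3.66, 3.46 and 3.70 after ERY1-OVA and 3.03 and 3.64 after SIINFEKL, below every Naive and OVA library. It fell by 0.91 ± 0.16 on the log2 scale after SIINFEKL (2 against 3, adjusted p = 0.0023, and by 1.22 without SIINFEKL replicate 2 or 0.61 without replicate 1) and by 0.64 ± 0.14 after ERY1-OVA (adjusted p = 0.0031). Against OVA the ERY1-OVA value was -0.60 ± 0.14, which did not pass the threshold (adjusted p = 0.057) but did without SIINFEKL replicate 1 (adjusted p = 0.012) or 2 (0.013). The TER119-SIINFEKL libraries also lay below all Naive ones (-0.33 ± 0.14, adjusted p = 0.069), with a call without either SIINFEKL library (0.02).

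The other 3 falls after SIINFEKL were smaller. Mrps27, a pentatricopeptide repeat protein of the small subunit (chr13:99344786-99415562, + strand), stood at 3.33, 3.30 and 3.42 in Naive and 2.85 and 3.00 after SIINFEKL (-0.43 ± 0.11, adjusted p = 0.021). It stood at 3.96, 3.79 and 3.86 after OVA (0.52 ± 0.10) and 3.79, 3.74 and 3.83 after TER119-SIINFEKL (0.43 ± 0.10), so it moved in opposite directions from Naive with no overlap in any of these groups. ERY1-OVA libraries, at 3.48, 3.42 and 3.62, overlapped Naive. The fall of Mrps27 was not called without SIINFEKL replicate 1 (-0.35) or Naive replicate 3 (-0.40). Mrps5, whose bacterial counterpart lies at the entry of the messenger RNA channel, changed by -0.44 ± 0.13 and was not called without SIINFEKL replicate 1 (-0.39), Naive replicate 2 (-0.40) or Naive replicate 3 (-0.38). Mrpl2, of the core around the peptidyl transferase centre, changed by -0.52 ± 0.16 (adjusted p = 0.044), a call lost without any 1 of 8 libraries, SIINFEKL replicate 1 among them (-0.40).

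**Figure D3:**
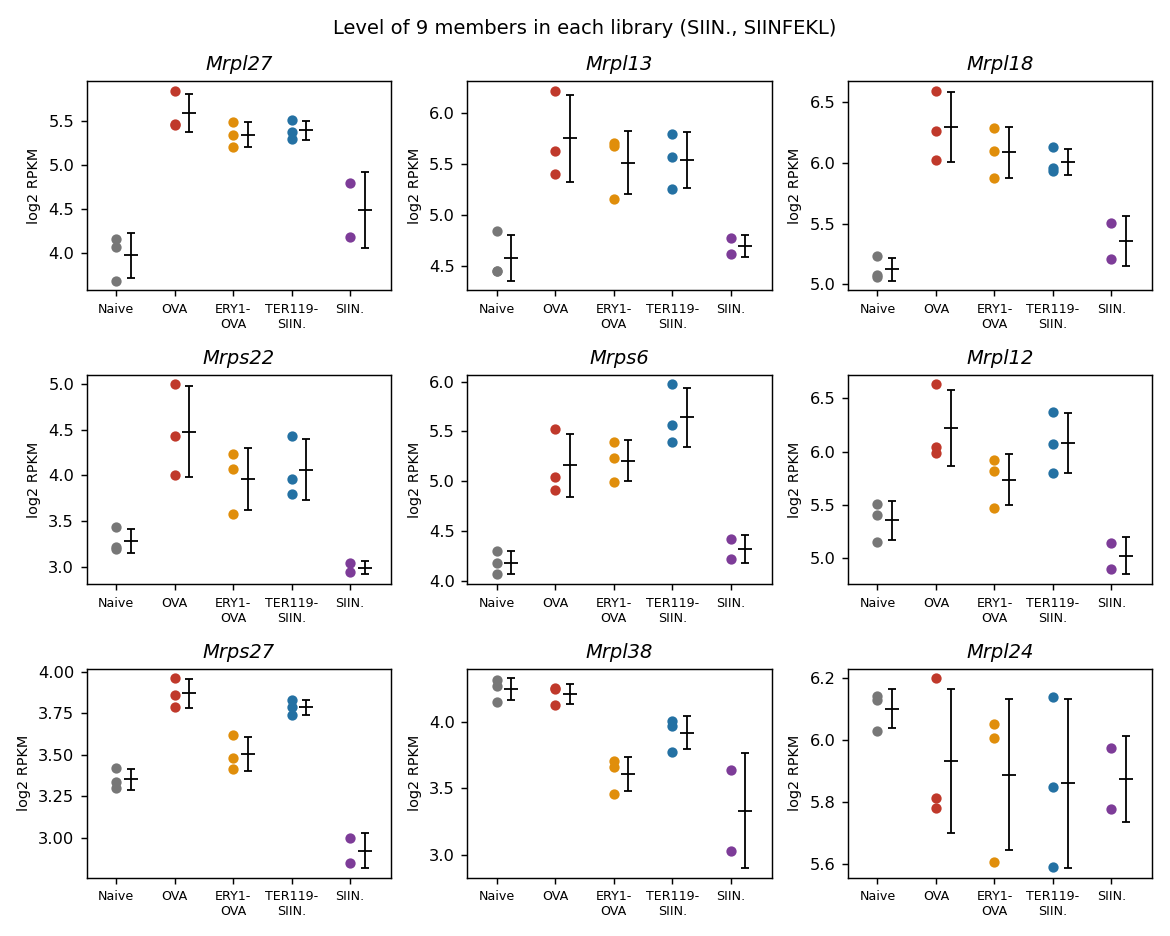
Level (log2 RPKM) of 9 members in each of the 14 libraries (points) by group, with the group mean and SD at the right of the points. Mrpl27, Mrpl13, Mrpl18 and Mrps6 stand higher than every Naive library in all libraries given OVA, ERY1-OVA or TER119-SIINFEKL, Mrpl38 is lowest after SIINFEKL and ERY1-OVA, and Mrpl24 overlaps Naive in each of the 3 responding groups.

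The proteins that recruit translation factors rose after OVA and TER119-SIINFEKL. Mrpl12, which forms the flexible stalk (chr11:120484613-120489065, + strand), stood at 5.51, 5.15 and 5.40 in Naive, 6.63, 5.99 and 6.04 after OVA and 6.37, 5.80 and 6.07 after TER119-SIINFEKL. After ERY1-OVA it stood at 5.47, 5.82 and 5.93, overlapping Naive, and after SIINFEKL at 4.90 and 5.15, the lowest of all. The changes were 0.86 ± 0.19 (OVA, adjusted p = 0.0024) and 0.72 ± 0.19 (TER119-SIINFEKL, adjusted p = 0.0069). Mrpl10, which anchors the stalk, rose by 0.45 ± 0.10, 0.38 ± 0.10 and 0.50 ± 0.10 after OVA, ERY1-OVA and TER119-SIINFEKL, but not past the threshold after ERY1-OVA without Naive replicate 2 (0.30). Mrpl11, at the stalk base, rose by 0.65 ± 0.19 after OVA and by 0.55 ± 0.19 after TER119-SIINFEKL. The call of Mrpl11 after OVA was lost without OVA replicate 1 (0.42) or Naive replicate 3 (0.59), and that after TER119-SIINFEKL without Naive replicate 2 or 3 or TER119-SIINFEKL replicate 1 or 3 (0.49 to 0.55).

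At the tunnel exit, where the new chain leaves the large subunit, members split. Of 6 such members, 4 rose after OVA, 2 after ERY1-OVA and 3 after TER119-SIINFEKL (24.4%, 20.9% and 24.6% of all tested genes), and 0 fell (23.1%, 19.0% and 23.0%). Mrpl45, which in mammals holds the ribosome at the inner membrane, stood at 3.48, 3.66 and 3.71 in Naive (chr11:97315716-97329920, + strand). It stood at 4.42, 4.25 and 4.25 after OVA, 4.25, 4.28 and 4.26 after ERY1-OVA, 4.54, 4.33 and 4.46 after TER119-SIINFEKL, and 3.69 and 3.26 after SIINFEKL. The rises were 0.69 ± 0.12, 0.64 ± 0.12 and 0.82 ± 0.12, with no overlap with Naive, and each kept its call without any 1 library.

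Mrpl23 and Mrpl24, which line the same exit, did not rise. Mrpl24 (chr3:87919506-87923672, + strand) stood at 6.13, 6.03 and 6.14 in Naive, 6.20, 5.78 and 5.81 after OVA, 5.61, 6.05 and 6.01 after ERY1-OVA, and 6.14, 5.59 and 5.85 after TER119-SIINFEKL. SIINFEKL libraries held 5.97 and 5.78. The fold changes from Naive were -0.17 ± 0.16, -0.21 ± 0.16, -0.24 ± 0.16 and -0.23 ± 0.18, none past the threshold, and the groups that received OVA, ERY1-OVA or TER119-SIINFEKL overlapped Naive. Mrpl24 shares 594 exon bases with Rrnad1 on the opposite strand. Mrpl23 gave -0.07 ± 0.20, -0.28 ± 0.20 and -0.21 ± 0.20 in the 3 responding groups and -0.62 ± 0.22 after SIINFEKL (adjusted p = 0.075, called without OVA replicate 1).

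The 3 paralogs of bacterial S18 differed in their values. Mrps18c rose by 1.03 ± 0.21 after OVA, 0.84 ± 0.21 after ERY1-OVA and 0.71 ± 0.21 after TER119-SIINFEKL, the last lost without Naive replicate 2 (0.51). Mrps18a, the paralog in the large subunit, rose by 0.70 ± 0.14 after OVA and 0.58 ± 0.14 after TER119-SIINFEKL, and by 0.45 ± 0.14 after ERY1-OVA, a call lost without ERY1-OVA replicate 2 or 3 or Naive replicate 1 or 3 (0.40 to 0.45). Mrps18b gave 0.22 ± 0.11 (called without OVA replicate 2, at 0.32), -0.09 ± 0.11 and 0.10 ± 0.11, none past the threshold in all libraries. The differences between the paralogs were not tested. Mrps12, of the decoding centre, gave 0.40 ± 0.18 (adjusted p = 0.082, called at 0.53 without Naive replicate 1), 0.10 ± 0.18 and 0.07 ± 0.18, while Mrps30 rose after OVA at the edge of the threshold (0.36 ± 0.14, adjusted p = 0.048), a call lost without any 1 of 8 libraries (0.27 to 0.36).

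Levels per length spanned a wide range. The geometric mean over all libraries ran from 2.81 RPKM for Mrps25 and 3.61 RPKM for Mrpl47 to 92.98 RPKM for Mrpl52 and 103.92 RPKM for Mrps16. Mrps16 (chr14:20389304-20393634, − strand) stood at 6.38, 5.70 and 6.32 in Naive, 7.21, 6.59 and 6.61 after OVA, 6.59, 7.11 and 6.96 after ERY1-OVA and 7.23, 6.66 and 6.75 after TER119-SIINFEKL. It stood at 7.01 and 6.68 after SIINFEKL, above every Naive library, with a change of 0.71 ± 0.25 (adjusted p = 0.069, called without OVA replicate 1). Its rises of 0.67 ± 0.22, 0.75 ± 0.22 and 0.75 ± 0.22 in the other groups lost their calls without Naive replicate 2 (0.46, 0.54 and 0.53), among other libraries. Mrpl52 gave 0.30 ± 0.19, 0.30 ± 0.19 and 0.36 ± 0.19, none past the threshold, and was among the 16 members called in none of the 9 comparisons. Mrps36, whose product is outside the ribosome, rose by 0.71 ± 0.18 after OVA and TER119-SIINFEKL alike and by 0.54 ± 0.18 after ERY1-OVA, the last lost without ERY1-OVA replicate 2 or 3 or Naive replicate 2 or 3.

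The groups that differ in the form of the same antigen were then set against each other. For the protein, ERY1-OVA against OVA called 0 members higher (0.408% of all tested genes) and 0 lower (0.654%). At an unadjusted p under 0.05, 0 were higher and 17 lower (9.61% of all tested genes were lower). The ERY1-OVA mean was the lower for 71 of 77 members, with a median of -0.20 and a range of -0.60 to 0.14. The median was -0.05 without OVA replicate 1, the library in which members stood highest.

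For the peptide, TER119-SIINFEKL against SIINFEKL called 48 of 77 higher (20.4% of all tested genes) and 0 lower (17.0%), with 0 lower at an unadjusted p under 0.05 too. The median was 0.50 against 0.00 over all genes, and 76 members had the higher mean in TER119-SIINFEKL. The count was 26 without SIINFEKL replicate 2 and 31 without TER119-SIINFEKL replicate 1. Over all tested genes 18.5% were called higher without TER119-SIINFEKL replicate 1. The largest values were those of Mrps6 (1.33 ± 0.19, adjusted p = 0.00021), Mrps22 (1.08 ± 0.26) and Mrpl12 (1.06 ± 0.21). The libraries of the 2 groups did not overlap for any of these 3 genes.

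The difference between those 2 effects, (ERY1-OVA minus OVA) minus (TER119-SIINFEKL minus SIINFEKL), was lower than 0 by the test for 49 of 77 members (20.6% of all tested genes) and higher for 0 (17.1%), with 0 higher at an unadjusted p under 0.05. The median was -0.79 against 0.02 over all genes, with 31 of the 49 in the large subunit, 16 in the small subunit, and Mrps36 and Mrps36-ps1 besides. Mrps22 (-1.59 ± 0.35), Mrpl12 (-1.54 ± 0.29) and Mrps28 (-1.41 ± 0.32) had the largest values. Without OVA replicate 1 and TER119-SIINFEKL replicate 1 the count was 34 (19.4% of all tested genes were lower) and the median -0.54. The 2 effects differ in carrier (ERY1 or TER119) as well as in antigen form, and these cannot be told apart.

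**Figure D4:**
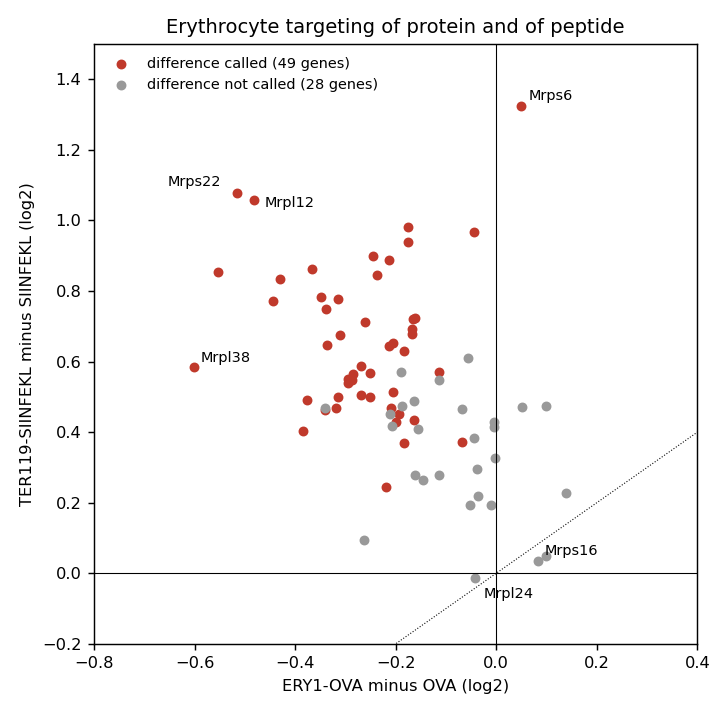
Each point is 1 of the 77 genes, with the log2 difference ERY1-OVA minus OVA on the x axis and TER119-SIINFEKL minus SIINFEKL on the y axis; the dotted line marks equal effects. The 49 genes whose difference of effects passed the test (red) lie above that line, 48 of them left of 0 on x and all 49 above 0 on y.

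The 2 targeted groups and the 2 soluble groups were compared as well. ERY1-OVA against TER119-SIINFEKL called 0 members higher (0.0715% of all tested genes) and 0 lower (0.49%), and at an unadjusted p under 0.05 gave 0 higher and 6 lower (6.49% of all tested genes were lower), with a median of -0.07 and a range of -0.44 to 0.19. OVA against SIINFEKL called 57 higher (22.4%) and 0 lower (19.9%), with 0 lower at an unadjusted p under 0.05, and its median of 0.66 was the largest rise of the comparisons made. The count was 37 without SIINFEKL replicate 2. Mrps22 (1.49 ± 0.26), Mrpl28 (1.24 ± 0.25) and Mrpl12 (1.20 ± 0.21) differed most, with every OVA library above both SIINFEKL libraries.

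Gene length moved with the level of the members. Their median exon length was 2143 bases against 4434 for all tested genes, and 60 of the 76 with an annotation were shorter than that. In OVA replicate 1 and TER119-SIINFEKL replicate 1, where members lay 0.30 and 0.21 above their group means, longer genes read low for their group (rank correlation across genes -0.47 and -0.46). In ERY1-OVA replicate 1 and TER119-SIINFEKL replicate 2, where members lay 0.21 and 0.16 below, the correlations were 0.39 and 0.49. These are descriptions across genes of 1 library, and genes are not replicates.

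A correction per library for exon length and GC content left fewer and smaller rises. After OVA 41 members were higher and 1 lower (median 0.34), after ERY1-OVA 23 and 4 (0.22), after TER119-SIINFEKL 33 and 2 (0.27), and after SIINFEKL 7 and 5 (-0.01). Over all tested genes the corrected shares called higher and lower were 21.9% and 31.3% after OVA, 19.3% and 27.4% after ERY1-OVA, 23.2% and 29.1% after TER119-SIINFEKL, and 11.1% and 11% after SIINFEKL, so that the 7 rises after SIINFEKL were fewer than that share of 77 would give. For OVA against SIINFEKL 43 members were higher and 0 lower, with 20.4% and 27.8% over all genes. In that fit Mrpl24 was lower after OVA (-0.44), ERY1-OVA (-0.42) and TER119-SIINFEKL (-0.49), and Mrpl10 was no longer called after OVA or ERY1-OVA (0.20 in both). The TER119-SIINFEKL call of Mrps27 (0.24), Mrpl11 (0.36) and Mrps18c (0.30) and the ERY1-OVA call of Mrps22 (0.55) were lost there too. Among the shorter members (under 2143 bases) 23 of 38 rose after OVA and among the longer 27 of 38, with medians of 0.56 and 0.58. Of 3898 tested genes within the quartiles of member length, 1151 were higher after OVA and 679 lower, with a median of 0.07. For the difference of effects 408 of these genes were higher and 1017 lower.

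The other proteins of mitochondrial translation were followed by lists. Their counts are read against the shares of all tested genes called higher (24.4% after OVA, 20.9% after ERY1-OVA, 24.6% after TER119-SIINFEKL and 7.58% after SIINFEKL) and lower (23.1%, 19.0%, 23.0% and 8.34%). Of the 7 mitoribosomal proteins named otherwise, 4 rose after OVA, 2 after ERY1-OVA and 2 after TER119-SIINFEKL, 0 after SIINFEKL, and 0 fell. The share that rose was 57.1% after OVA, but 28.6% in each targeted group, near the share of all genes. Dap3, the GTP-binding protein of the small subunit, rose by 0.66 ± 0.12, 0.59 ± 0.12 and 0.59 ± 0.12, and Aurkaip1 by 0.77 ± 0.15, 0.69 ± 0.15 and 0.66 ± 0.15. Of 13 translation factors, 8 rose after OVA, 4 after ERY1-OVA, 6 after TER119-SIINFEKL and 1 after SIINFEKL (61.5%, 30.8%, 46.2% and 7.7%), with 0 falls. Tufm, the elongation factor that brings aminoacyl-tRNA, rose by 0.65 ± 0.12, 0.34 ± 0.12 and 0.70 ± 0.12, and its exchange factor Tsfm by 0.84 ± 0.12, 0.39 ± 0.12 and 0.44 ± 0.12. The single rise after SIINFEKL was that of Mtfmt, which formylates the initiator tRNA (0.82 ± 0.21).

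Assembly and rRNA modification factors did not rise as a group. Of 25 measured, 2 rose and 2 fell after OVA, 2 and 4 after ERY1-OVA, 3 and 2 after TER119-SIINFEKL, and 0 and 4 after SIINFEKL. The shares that rose (8.0%, 8.0%, 12.0% and 0) were below those of all tested genes in each group. The rRNA methyltransferase gene Mrm1 fell by 0.69 ± 0.21, 1.10 ± 0.21, 0.97 ± 0.21 and 0.90 ± 0.23 in that order, while Rpusd3, a pseudouridine synthase family gene, rose by 0.39 ± 0.14, 0.56 ± 0.14 and 0.66 ± 0.14 in the first 3. Of 17 mitochondrial aminoacyl-tRNA synthetases, 6 rose and 1 fell after OVA, 4 and 1 after ERY1-OVA, 4 and 2 after TER119-SIINFEKL, and 0 and 1 after SIINFEKL. The 35.3% that rose after OVA compares with 24.4% of all tested genes, and the 23.5% in each targeted group is near the 20.9% and 24.6% of all genes. Ears2, the glutamyl enzyme, fell after ERY1-OVA (-1.18 ± 0.23), TER119-SIINFEKL (-1.38 ± 0.23) and SIINFEKL (-0.98 ± 0.25), and Lars2, the leucyl enzyme, fell after OVA (-0.80 ± 0.29). The Naive mean level of Lars2, 8.08, was the highest of the 17, with Iars2 next at 4.2. Single libraries of Lars2 ranged from 6.94 (OVA replicate 1) to 8.45 (Naive replicate 3).

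**Figure D5:**
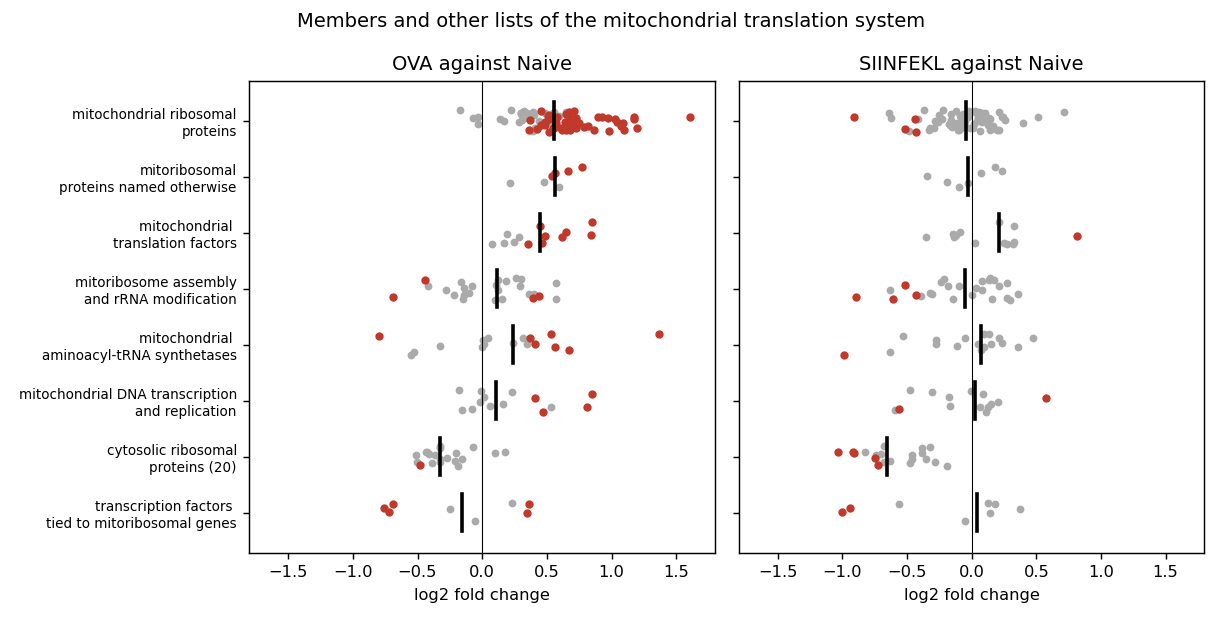
Log2 fold change of each gene (points, red where the adjusted p was under 0.05) after OVA and after SIINFEKL against Naive, for the 77 members and 7 other lists, with the list median as a bar. After OVA the medians are 0.56 for the members, 0.45 for translation factors and -0.33 for cytosolic ribosomal proteins, and after SIINFEKL -0.05, 0.21 and -0.65.

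Genes that copy and transcribe mitochondrial DNA gave 4 rises and 0 falls after OVA among 14 measured, 3 and 3 after ERY1-OVA, 3 and 0 after TER119-SIINFEKL, and 1 and 1 after SIINFEKL. The shares that rose (28.6%, 21.4%, 21.4% and 7.1%) were near those of all tested genes (24.4%, 20.9%, 24.6% and 7.58%). Tfam, which packages mitochondrial DNA and starts its transcription, rose by 0.47 ± 0.14, 0.43 ± 0.14 and 0.46 ± 0.14 in the first 3 groups, and Pnpt1, an RNA-degrading enzyme of the organelle, by 0.81 ± 0.16, 0.55 ± 0.16 and 0.62 ± 0.16. Cytosolic ribosomal protein genes took the other direction in the median. Of a sample of 20, 0 rose in any antigen group, and 1, 2, 3 and 5 fell after OVA, ERY1-OVA, TER119-SIINFEKL and SIINFEKL (5.0%, 10.0%, 15.0% and 25%, against 23.1%, 19.0%, 23.0% and 8.34% of all genes), with medians of -0.33, -0.32, -0.38 and -0.65. Rps4x fell in each (by 0.48 ± 0.17, 0.46 ± 0.17, 0.53 ± 0.17 and 0.72 ± 0.19).

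Of 8 transcription regulators tied to these genes, 2 rose and 3 fell after OVA, 2 and 3 after ERY1-OVA, 2 and 2 after TER119-SIINFEKL, and 0 and 2 after SIINFEKL. The 25% that rose in each of the first 3 groups is near the share of all tested genes (24.4%, 20.9% and 24.6%). Nrf1 rose by 0.36 ± 0.10, 0.34 ± 0.10 and 0.31 ± 0.10 and Gabpb1, a subunit of GABP, by 0.35 ± 0.11, 0.41 ± 0.11 and 0.48 ± 0.11 in the first 3 groups. Pprc1, a coactivator of the PGC-1 family, fell in each of the 4 (by 0.76 ± 0.17, 1.13 ± 0.17, 0.73 ± 0.17 and 0.94 ± 0.19), and Myc fell after OVA (by 0.72 ± 0.21), ERY1-OVA (by 0.72 ± 0.21) and SIINFEKL (by 1.00 ± 0.23). These lists share the libraries and the Naive values with the members, and whether a list differed from the members was not tested.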

How the data were processed

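Stranded libraries of polyadenylated RNA were made from sorted cells, 14 in all, per the labels' protocols. The authors deposited 1 table of normalized log values, read here as log2 RPKM, for 10106 genes. The submitters' processing notes list STAR 2.4.2, bcl2fastq 2.17.1.14, the builds mm10 and GRCm38, and edgeR, while the gene lengths, filter, prior count, strand setting and normalization between libraries are not given in the sources used here. Base 2 was inferred, since the sum over genes of RPKM times kilobases of exon, which should come near the scaling total, ranged over libraries from 1764368 to 2042896 with base 2 and from 22638320 to 37606456 with base e. Both ranges lay above that total, base 2 the nearer. Depth is unknown and no counting interval is given.

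Genes with a mean of at least 1 RPKM were kept (9793). The linear model of limma 3.58.1 (R 4.3.3) had 1 mean for each of the 5 groups and a trend of variance on mean level, giving 9 residual degrees of freedom plus 4.6 from the prior. Tests were two-sided, with Benjamini-Hochberg adjustment over all genes tested within each of 9 comparisons. Positions and exon overlaps come from GENCODE M21 (GRCm38), matched by Ensembl identifier, and promoters from RefSeq (GRCm38.p6). The members and lists were chosen with earlier results of these data known. Named members were the largest changes per comparison among called members whose groups did not overlap, the 3 highest and 3 lowest by level, members with fixed roles, and members called against the majority, and from each list those with the smallest adjusted p or called against the majority. Members described beyond this rule are Mrpl46 (an overlap), Mrpl33 (an unmatched identifier) and Mrps36-ps1 (a pseudogene). A result for 1 gene of the other lists is not reported here. There were 14 alternatives besides leaving out each library: 2 other scalings, pseudocounts of 0.1 and 1, no filter, a filter at 3 RPKM, array weights, a replicate block, moderation without the trend or made robust, fewer groups, SIINFEKL left out, 2 libraries left out, and a correction for length and GC (9716 genes). A SIINFEKL library left alone in its group was given the spread of the others. The fit was tested on simulated data. Tables were made with pandas 2.3.3 and numpy 2.4.6 in Python 3.11.15, and figures with matplotlib 3.10.9.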

Additional observations from a re-analysis of the deposited data

Results flagged for a closer look

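The effect of erythrocyte targeting differed between the ERY1-OVA and TER119-SIINFEKL arms for many members, by limma's test of the difference itself (Benjamini-Hochberg adjusted p under 0.05). It was lower in the ERY1-OVA arm for 49 of 77 members. The arms differ in antigen form, protein or peptide, and in carrier, and these cannot be told apart. Negative values mean that ERY1-OVA minus OVA was below TER119-SIINFEKL minus SIINFEKL. In the large subunit the values were -0.44 for Mrpl10, -0.97 for Mrpl11, -1.54 for Mrpl12, -1.08 for Mrpl13, -1.11 for Mrpl16, -1.16 for Mrpl17, -0.86 for Mrpl18, -1.09 for Mrpl2, -1.15 for Mrpl27, -1.26 for Mrpl28, -0.86 for Mrpl35, -1.19 for Mrpl38, -1.01 for Mrpl45, -1.10 for Mrpl47, -0.82 for Mrps18a and -0.60 for Mrps30. In the small subunit they were -0.89 for Mrps11, -0.84 for Mrps12, -0.79 for Mrps18b, -1.59 for Mrps22, -0.98 for Mrps25, -1.23 for Mrps27, -1.41 for Mrps28, -0.87 for Mrps5 and -1.28 for Mrps6, and it was -0.85 for Mrps36. Without OVA replicate 1 and TER119-SIINFEKL replicate 1, 34 of 77 members were called, and the values of Mrpl10 (-0.31), Mrpl11 (-0.69), Mrpl13 (-0.72), Mrps12 (-0.53), Mrps30 (-0.37) and Mrps36 (-0.60) were not. Without SIINFEKL replicate 2 the same 6 were not called, with values of -0.43 for Mrpl10, -0.84 for Mrpl11, -1.01 for Mrpl13, -0.76 for Mrps12, -0.66 for Mrps30 and -0.74 for Mrps36. Of 27 alternatives, Mrpl10 lost its call in 16, Mrps30 in 10, Mrps36 in 8, Mrps12 in 6, and Mrpl11 and Mrpl13 in these 2. SIINFEKL had 2 libraries, which differed in Mki67, and the part of that in these values was not tested.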

How the results depend on the processing

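No called value of a named member changed sign. The median of ERY1-OVA against TER119-SIINFEKL and that of SIINFEKL against Naive, both near 0, changed sign without single libraries (ranges -0.167 to 0.015 and -0.113 to 0.056). Over all alternatives, of 4858 values of named members 4568 stayed on their side of the threshold, 227 lost a call and 63 gained one. Leaving out 1 library gave 18 to 41 members higher and 1 to 2 lower after ERY1-OVA against Naive, 0 to 1 lower after TER119-SIINFEKL, 0 to 1 higher and 1 to 7 lower after SIINFEKL, 0 to 1 lower for ERY1-OVA against OVA, 26 to 50 higher for TER119-SIINFEKL against SIINFEKL and 37 to 58 higher for OVA against SIINFEKL. Array weights, whose estimation stopped before it converged, gave 1 member lower after OVA, 52 higher and 2 lower after ERY1-OVA, 3 lower after TER119-SIINFEKL, 1 lower after SIINFEKL, 2 higher and 10 lower for ERY1-OVA against OVA, and 2 higher and 6 lower for ERY1-OVA against TER119-SIINFEKL. The length and GC correction gave 1 lower after OVA (median 0.341), 4 lower after ERY1-OVA, 2 lower after TER119-SIINFEKL (median 0.272), 7 higher after SIINFEKL, 31 higher and 1 lower for TER119-SIINFEKL against SIINFEKL (median 0.315), and medians of 0.423 for OVA against SIINFEKL and -0.479 for the difference of effects. Quantile normalization gave 1 lower after TER119-SIINFEKL and 1 higher after SIINFEKL, and median-of-ratios rescaling 1 lower for ERY1-OVA against OVA. Fitting only the groups compared gave 1 lower after TER119-SIINFEKL, 1 lower after SIINFEKL and 1 lower for ERY1-OVA against OVA, and leaving the SIINFEKL group out gave 1 lower after TER119-SIINFEKL and 1 lower for ERY1-OVA against OVA. Without OVA replicate 1 and TER119-SIINFEKL replicate 1, 1 was lower after TER119-SIINFEKL (21.6% of all tested genes). After SIINFEKL 1 was higher and 8 were lower there (8.99% and 10.3% of all tested genes), and the median difference of effects was -0.544. The causes were not tested. Same-numbered libraries did not deviate together in every case: of 26 such pairs 14 had deviations correlated over 0.1, with r from -0.443 to 0.665. The median r was 0.1265 over same-numbered pairs and -0.0855 over pairs of different number. Whether the numbers stand for a pairing was not tested. A replicate block gave 51 higher after OVA, 37 after ERY1-OVA and 47 after TER119-SIINFEKL, and 2 lower after SIINFEKL. An alternative added after seeing the data left out members that overlap another gene of the table, Mrps36, Mrps36-ps1 and Mrpl33. Its counts are over 53 members, so they cannot be set directly against counts over 77. The medians were 0.57 after OVA, 0.39 after ERY1-OVA, 0.48 after TER119-SIINFEKL and -0.07 after SIINFEKL. Over all 77 they were 0.56, 0.39, 0.48 and -0.05. Depth is unknown, so how far it limits a value cannot be given.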
